A study of Mus musculus with 12 samples.

Results

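The selenoproteins are proteins that carry selenocysteine, an amino acid in which selenium takes the place of sulfur. The 10 selenoprotein genes described here were taken by symbol (Gpx1, Gpx4, Txnrd2, Selenop, Selenow, Selenof, Selenom, Selenok, Selenos and Selenot) from the 55487 genes counted in each library, and all 10 were found in the count files. The study measured RNA by sequencing in primary cultures of mouse embryonic fibroblasts (MEF), taken at embryonic day 13.5. All cells in all groups carried the floxed genotype HTTfl/fl. Control cells received a lentiviral vector encoding H2B-eGFP, and HTT-deleted cells received LV-Cre-GFP, a lentiviral vector encoding Cre recombinase, and both were harvested 7 days after transduction. From each cell suspension ribosomes were purified, and 1 part in 15 was kept for total RNA, which gives 4 groups of 3 libraries: total control, total HTT-deleted, ribosome control and ribosome HTT-deleted. Replicates were different primary cultures or separate passages, so a p-value reflects how far separate cultures or passages spread. The protocols mention no selection of transduced cells, so the HTT-deleted group can hold cells with an undeleted allele.

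Selenocysteine is encoded by UGA, which elsewhere is a stop codon. It is read as selenocysteine when a stem-loop in the 3′ untranslated region, the SECIS element, is bound by the protein SECISBP2 and a dedicated elongation factor delivers the selenocysteine tRNA. Where the UGA lies well ahead of the last exon junction, the mRNA can also be treated as one with a premature stop and be degraded. This is known above all when selenium is short. Members of the family reduce peroxides (glutathione peroxidases), keep thioredoxin reduced (thioredoxin reductases), carry selenium in blood plasma (selenoprotein P) or work at the endoplasmic reticulum, where several help proteins to fold or be removed.

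The coding sequence around the first selenocysteine codon is shown for each gene, because this codon is what makes the 10 genes a group. Sequences are from the GENCODE M21 transcripts on GRCm38, written 5′ to 3′ as DNA, with the selenocysteine codon in capitals and up to 12 bases on each side, ending at the stop codon where that comes sooner.
Gpx1: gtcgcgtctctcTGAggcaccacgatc
Gpx4: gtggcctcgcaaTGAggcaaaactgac
Txnrd2: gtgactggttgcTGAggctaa
Selenop: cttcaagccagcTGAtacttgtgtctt
Selenow: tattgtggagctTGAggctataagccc
Selenof: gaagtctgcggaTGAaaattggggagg
Selenom: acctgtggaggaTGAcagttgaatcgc
Selenok: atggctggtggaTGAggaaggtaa
Selenos: tcatctggcggcTGAaactaa
Selenot: atttgtgtatccTGAgggtaccggcgg

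The base after the codon was g in 6 of the 10 genes (Gpx1, Gpx4, Selenok, Selenot, Selenow and Txnrd2), a in 2 (Selenof and Selenos), c in Selenom and t in Selenop. In Txnrd2, Selenok and Selenos the selenocysteine is at the very end of the protein: it is codon 526 of 527 in Txnrd2, codon 189 of 190 in Selenos and codon 92 of 94 in Selenok. In Selenow it is codon 13 of 88. Selenop holds 10 such codons, from codon 59 to codon 377 of 380, while each of the other 9 genes holds 1. The codon lies upstream of the last exon junction in 8 genes, by 5 bases in Selenok and up to 470 bases in Selenot. In Selenos and Txnrd2 it lies in the last exon. The annotation gives a selenocysteine to 24 mouse genes, and the other 14 were kept as a comparison list.

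**Figure D1:**
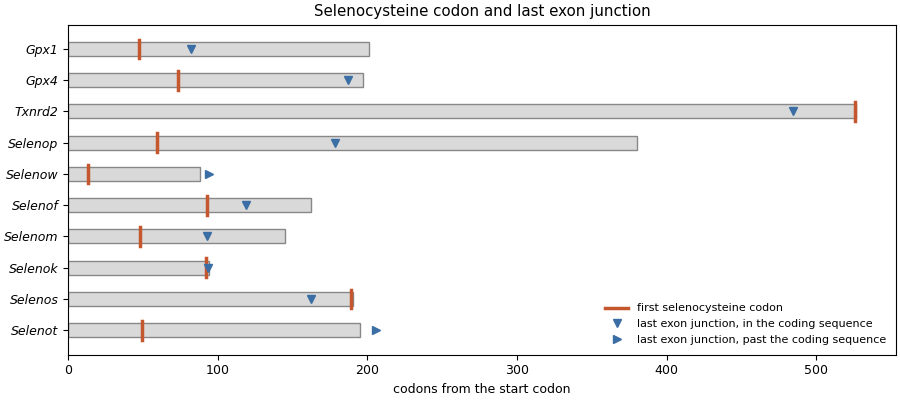
Coding sequence of the 10 selenoprotein genes (grey bars, in codons from the start codon), with the first selenocysteine codon (orange line) and the last exon junction (blue triangle). The codon is early in Selenow (codon 13 of 88) and next to the stop codon in Txnrd2 (526 of 527) and Selenos (189 of 190), the 2 genes where it lies past the last junction.

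By position on GRCm38, Gpx1 (ENSMUSG00000063856) lies at chr9:108338903-108340343, Gpx4 (ENSMUSG00000075706) at chr10:80047166-80056439, Selenop (ENSMUSG00000064373) at chr15:3268547-3280508 and Txnrd2 (ENSMUSG00000075704) at chr16:18426384-18479073. The other 6 genes lie on chromosomes 3 (Selenof and Selenot), 7 (Selenow and Selenos), 11 (Selenom) and 14 (Selenok). Exons of Selenop share 439 bases with Ccdc152 on the other strand, which had a mean of 0.13 CPM (the unit of level used here, a gene's share of its library's counts after TMM scaling of library sizes). The libraries were stranded, but the sources used here do not give the strand setting of the counting, so reads from overlapping genes on opposite strands may not be fully told apart. Gpx4 has a transcribed processed pseudogene, Gpx4-ps2, with a mean of 10.5 CPM. Reads that match both may have been assigned to the wrong gene or left out of both, so the level of Gpx4 is uncertain.

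Gene counts per library summed to 16789356 to 30571501, and 19446 to 22035 genes had a count. Htt was at 45.7 to 64.5 CPM in total control and 10.6 to 15.5 CPM in total HTT-deleted libraries, and at 20.1 to 32.0 against 3.98 to 12.8 CPM on ribosomes, lower in every HTT-deleted library. The 10 fibroblast markers summed to 24552 to 50370 CPM, with Col1a1 at 6144 CPM or more in each library. The 18 macrophage markers also had reads in every library, at 792 to 8496 CPM in sum. Cd5l was as low as 1 count, and Lyz2, at 398 to 5375 CPM, made up much of the sum. In each of the 3 replicate pairs, matched here by replicate number, and in both fractions the sum of the 18 markers was higher after HTT deletion. Total HTT-deleted replicate 1 stood apart from the other 5 total RNA libraries: short transcripts were high in it and long ones low. Over 13102 protein-coding genes in 10 groups by exon length, its median log2 deviation from the mean of the other 5 libraries was 0.83 in the shortest group (255 to 1859 bases) and -0.60 in the longest. Results that rest on this library are given with and without it.

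All 10 genes had reads in every library of these cultures, 9 of them at 60.6 CPM or more in every library. Per kilobase of exon, the mean levels in total control RNA were 103 CPM for Selenow, 91.4 for Gpx4, 87.6 for Selenop and 81.8 for Gpx1 (n = 3, SD 9.86, 6.23, 15.8 and 6.11). The libraries of neighbours in this order overlapped, so these 4 genes had no clear order among themselves. A second tier followed without overlap: Selenok at 62.1, Selenos at 59.8, Selenof at 55.2 and Selenom at 49.0 CPM per kilobase (SD 1.83, 5.88, 5.44 and 3.30), again with overlapping neighbours. Selenot, which encodes an endoplasmic reticulum thioredoxin-like protein, was lower, at 36.3 ± 1.13 CPM per kilobase (SD, n = 3). Txnrd2, the mitochondrial thioredoxin reductase, was the lowest of the 10, at 2.00 ± 0.25 CPM per kilobase (SD, n = 3). The order depends on the length used: divided by the length of the annotated selenocysteine-coding transcript, Selenof came out highest, at 212 ± 20.9 CPM per kilobase (SD, n = 3), and Gpx4 next at 164 ± 11.2, while Selenot and Txnrd2 stayed lowest.

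The glutathione peroxidases use glutathione to reduce peroxides. Gpx1, the cytosolic enzyme that acts on hydrogen peroxide, was at 110.0, 127 and 116 CPM in the 3 total control libraries and at 204, 176 and 160.3 CPM in the ribosome control libraries. In HTT-deleted cells it was at 217, 122 and 116 CPM in total RNA and at 179, 184 and 161 CPM on ribosomes. The control libraries of both fractions do not overlap, and the 217 CPM of total HTT-deleted replicate 1 is the highest of all 12 values. Gpx4, which reduces lipid peroxides in membranes and thereby blocks ferroptosis, was at 159, 167 and 146 CPM in total control and 251, 203 and 229 CPM in ribosome control libraries. In HTT-deleted cells Gpx4 was at 378, 144 and 160 CPM in total RNA and 265, 219 and 237 CPM on ribosomes. Apart from the 378 CPM of replicate 1, the total HTT-deleted values of Gpx4 lie in or next to the range of the controls.

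Selenop, the secreted selenium carrier, was at 295, 205 and 247 CPM in total control and at 448, 302 and 336 CPM in ribosome control libraries. In HTT-deleted cells it was at 490, 227 and 276 CPM in total RNA and at 551, 331 and 382 CPM on ribosomes. In every group Selenop was highest in replicate 1 and lowest in replicate 2. Of the other 9 genes Txnrd2 came nearest to that order, with replicates 1 and 3 level at 9.67 CPM in ribosome control. Within each replicate number, Selenop was higher in the HTT-deleted than in the control library, in both fractions.

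Selenow, a small cytosolic redox protein, ranged from 70.4 to 84.2 CPM in total control and from 98.3 to 139 CPM in ribosome control libraries. Selenof and Selenom are thioredoxin-like proteins of the endoplasmic reticulum lumen, Selenof being bound to the glycoprotein-folding sensor UGGT. Selenof ranged from 302 to 358 CPM in total control and from 461 to 532 CPM in ribosome control libraries, and Selenom from 67.5 to 77.3 and from 87.8 to 103 CPM. For all 3 genes the ribosome control libraries lay above the total control libraries without overlap. In the 3 total HTT-deleted libraries Selenow was at 151, 78.7 and 71.6 CPM, Selenof at 460.2, 324 and 302 CPM, and Selenom at 196, 69.9 and 60.6 CPM, high in replicate 1 alone. On ribosomes of HTT-deleted cells Selenow was at 108, 122 and 99.8 CPM, Selenof at 561, 549 and 492 CPM, and Selenom at 89.2, 103 and 85.0 CPM, all overlapping with the ribosome control libraries.

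Selenok and Selenos are single-pass proteins of the endoplasmic reticulum membrane, and both take part in removing misfolded proteins. Selenok, also a partner of the palmitoyltransferase ZDHHC6, ranged from 114 to 121 CPM in total control and from 159.8 to 176 CPM in ribosome control libraries. Selenos, which binds the ATPase VCP, ranged from 79.5 to 96.8 and from 105 to 127 CPM. Selenot ranged from 121 to 129 CPM in total control and from 153 to 172 CPM in ribosome control libraries. These 3 genes too were separate between the fractions. In the 3 total HTT-deleted libraries Selenok was at 234, 111 and 109.9 CPM and Selenos at 149, 85.2 and 79.0 CPM, again high in replicate 1. Selenot showed no such step, at 132, 128 and 125 CPM. On ribosomes of HTT-deleted cells Selenok was at 178, 167 and 163 CPM, Selenos at 110.0, 122 and 106 CPM, and Selenot at 188, 166 and 169.8 CPM. Txnrd2 was at 9.89, 7.71 and 8.78 CPM in total control and at 9.67, 8.25 and 9.67 CPM in ribosome control libraries, which overlap. In HTT-deleted cells it was at 16.2, 7.96 and 9.88 CPM in total RNA and at 11.97, 9.09 and 9.21 CPM on ribosomes, highest in replicate 1 in both.

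**Figure D2:**
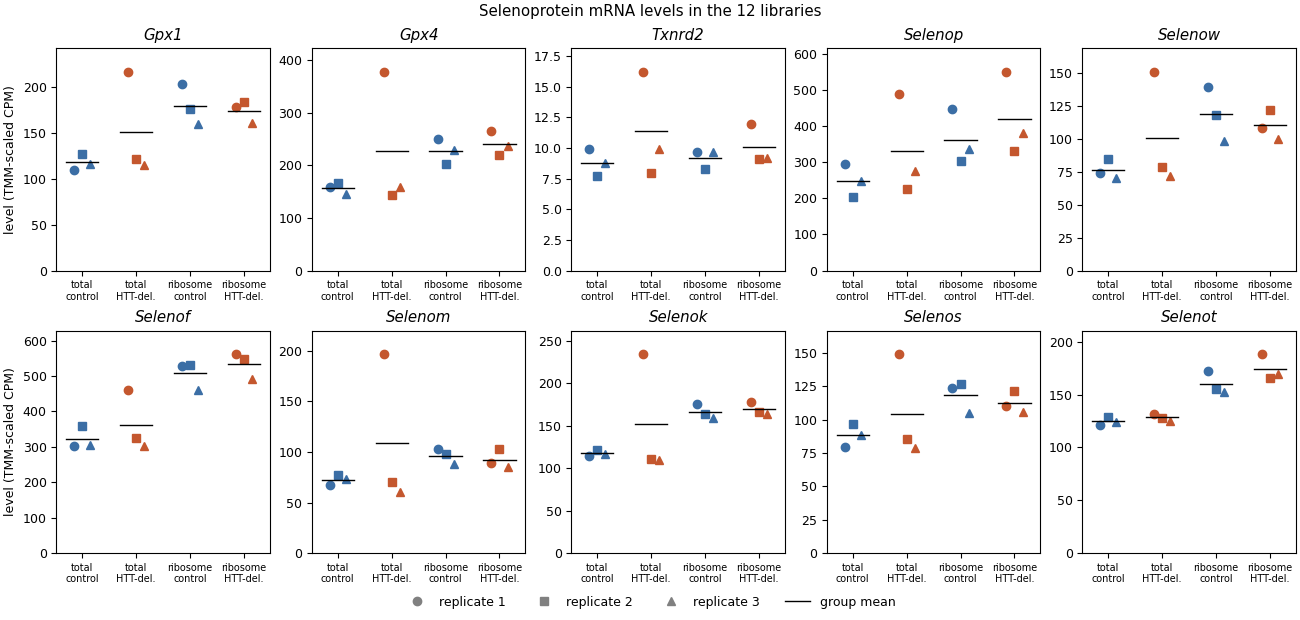
Levels of the 10 selenoprotein genes (TMM-scaled CPM, axes from 0) in the 12 libraries, by group, with blue for control, orange for HTT-deleted, the symbol for the replicate number and a line for the group mean (n = 3). In total RNA, HTT-deleted replicate 1 (orange circle) is the highest of the 6 total RNA libraries in every panel, only slightly so for Selenot (132 against 129 CPM for the next).

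In control cells, most of the 10 selenoprotein mRNAs took a larger share of ribosome-associated RNA than of total RNA. With edgeR's quasi-likelihood test and a Benjamini-Hochberg adjusted p under 0.05, 8 of the 10 genes were higher on ribosomes, against 10% of the 14990 genes tested (25% were called in either direction). The glutathione peroxidases Gpx1 and Gpx4 were 1.52-fold and 1.44-fold higher. The endoplasmic reticulum genes Selenof, Selenok, Selenos, Selenom and Selenot were 1.57-fold, 1.41-fold, 1.34-fold, 1.32-fold and 1.28-fold higher, and Selenow was 1.55-fold higher. The ribosome and total libraries did not overlap for 9 of the 10 genes, against 20.6% of all genes tested. The median log2 fold change of the 10 genes was 0.51, and that of all genes tested was 0.017.

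Selenof, the gene with the largest change, rose by 0.65 on the log2 scale (SE 0.11, edgeR adjusted p = 0.00745). For Selenok the log2 fold change was 0.50 (SE 0.077, adjusted p = 0.00621), and for Gpx1 it was 0.60 (SE 0.11, adjusted p = 0.0112). The smallest change among the called genes was that of Selenot, 0.35 (SE 0.082, adjusted p = 0.0219), and each of the 8 was higher on ribosomes in 3 of 3 replicate pairs. Selenop had a log2 fold change of 0.53 (SE 0.20) that did not pass, at an adjusted p of 0.0915. Its own libraries spread by replicate number, and with the replicate number as a block it passed, at an adjusted p of 4.5e-05 in edgeR. That fit called 9 of the 10 genes higher, against 24.3% of all genes tested. Txnrd2 was called in neither fit, with a log2 fold change of 0.056 (SE 0.16, adjusted p = 0.841) and differences between the fractions of -0.032, 0.097 and 0.14 in the 3 pairs.

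The number of genes called depended on the libraries in the fit. Without total control replicate 1, 2 of the 10 remained called (Selenof and Selenok), against 2.53% of all genes called higher. Without total control replicate 3, 3 remained (Gpx1, Selenof and Selenok), against 4.62%. A fit over all 12 libraries called Selenof and Selenot, against 2.17%. The share of all genes called higher fell in the same fits, from the 10% given above. The direction of the 8 called genes was the same in each of those fits. The difference between fractions also went with transcript length: over genes of the shortest length group the median log2 fold change was 0.42 and 33.6% were called higher, and over the longest group it was -0.39 with 1.22% called higher. Of the 10 selenoprotein genes, 5 are in the shortest group (Gpx1, Gpx4, Selenow, Selenom and Selenos). Gpx1, Gpx4 and Selenow lay above that group's median, and Selenom (0.40) and Selenos (0.42) lay just under it. Selenof, by exon length in the seventh group, stood at 0.65 where the median of its group was -0.076, although its selenocysteine-coding transcript is only 1514 bases long against 5819 bases of exons. The part of length in these differences was not tested.

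**Figure D3:**
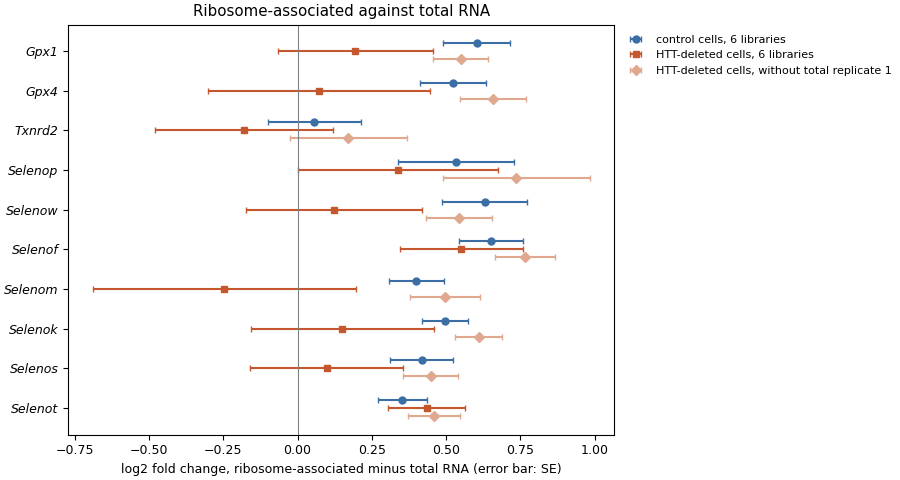
Log2 fold change of ribosome-associated against total RNA for the 10 selenoprotein genes (points, with SE as error bars) in control cells (blue), in HTT-deleted cells (orange) and in HTT-deleted cells without total replicate 1 (light orange). In control cells 9 genes lie between 0.35 and 0.65 and Txnrd2 lies at 0.056. In HTT-deleted cells the points lie between -0.25 and 0.55, lower than in control cells for 9 genes and higher for Selenot (0.43 against 0.35), and without total replicate 1 they lie between 0.17 and 0.77.

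The other genes of the pathway gave a mixed picture in the same comparison. Of the 14 other selenoproteins, 11 passed the filter on low counts, and 1 of them was called, against 10% of all genes called higher. This was Msrb1, a methionine sulfoxide reductase, higher on ribosomes by 0.54 (SE 0.14, edgeR adjusted p = 0.0330). With the replicate block 5 were called higher (Dio3, Gpx3, Msrb1, Selenoh and Sephs2), against 24.3% of all genes tested, and Txnrd3 lower. The cytosolic thioredoxin reductase Txnrd1 was at 149 CPM in total and 139 CPM in ribosome control RNA, with a log2 fold change of -0.11 (SE 0.081, adjusted p = 0.368).

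Of 14 genes for selenocysteine insertion and selenium supply, 1 was called higher and 3 were called lower on ribosomes. Over all 14990 genes tested, 10% were called higher and 25% in either direction, so counts in these short lists say little about the lists. Secisbp2, the SECIS-binding protein, fell by 0.72 (SE 0.12, adjusted p = 0.0073), from 22.5, 20.7 and 23.5 CPM in total control to 15.0, 12.2 and 13.4 CPM in ribosome control libraries. Its relative Secisbp2l fell by 0.46 (SE 0.079, adjusted p = 0.00823), and Sepsecs, the synthase that makes selenocysteine on its tRNA, fell by 0.52 (SE 0.11, adjusted p = 0.0150). The gene that rose was Rpl30, a ribosomal protein that also binds SECIS elements, with a log2 fold change of 0.90 (SE 0.13, adjusted p = 0.00552). Of 15 partners and thiol enzymes Txn1, the cytosolic thioredoxin, was the 1 called, at 0.57 (SE 0.13, adjusted p = 0.0184). Of 5 tested homologues that carry cysteine in place of selenocysteine, 2 were called higher: Gpx7 at 0.56 (SE 0.095, adjusted p = 0.00826) and Gpx8 at 0.58 (SE 0.11, adjusted p = 0.0128), both glutathione peroxidase relatives of the endoplasmic reticulum.

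In HTT-deleted cells the same comparison, fitted with edgeR on the 6 libraries of those cells, called none of the 10 genes. Without the replicate block 0.896% of 14627 genes were called, and with it 0.663%, all of them lower on ribosomes. Selenof and Selenot had unadjusted p under 0.05, and Selenot was called by DESeq2 (0.827% of all genes called higher) and in the edgeR fit of all 12 libraries (1.22%). The log2 fold changes ran from -0.25 for Selenom to 0.55 for Selenof, with a median of 0.14. Total HTT-deleted replicate 1 was above its ribosome partner for 7 genes, with pair differences from -0.28 for Gpx1 to -1.14 for Selenom. In pairs 2 and 3 the ribosome library was higher for 9 genes, by 0.37 to 0.76, and for Txnrd2 by 0.19 and -0.10. Without that library, edgeR called 8 of the 10 higher on ribosomes (all but Selenop and Txnrd2), against 7.95% of the genes tested, and their median was 0.55. The 8 are the genes called in control cells. The block on pairs 2 and 3, chosen after seeing the data, called these 8 and Selenop, against 27.7% of all genes called higher.

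Among the other lists no gene was called in HTT-deleted cells with edgeR on those 6 libraries. Secisbp2 came nearest, with a log2 fold change of -0.82 (SE 0.15, adjusted p = 0.0686), at 23.0, 22.6 and 24.1 CPM in total and 12.4, 12.8 and 14.7 CPM in ribosome libraries, which do not overlap. The smallest p of the other 3 lists belonged to Selenoo at -0.22 (SE 0.14), Zdhhc6 at 0.25 (SE 0.12) and Gpx8 at 0.38 (SE 0.17), with adjusted p of 0.649, 0.508 and 0.450. Without total HTT-deleted replicate 1, Secisbp2 and Gpx8 passed, at -0.82 (SE 0.12, adjusted p = 0.0132) and 0.52 (SE 0.13, adjusted p = 0.0414). In that fit Secisbp2l (adjusted p = 0.0262) was also called lower on ribosomes, and Selenoh, Rpl30, Txn1, Txn2 and Gpx7 were called higher (adjusted p from 0.0107 for Txn1 to 0.0461 for Gpx7).

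In total RNA no selenoprotein mRNA was called different between HTT-deleted and control cells. All 10 log2 fold changes of HTT-deleted against control were above 0, from 0.073 for Selenot to 0.64 for Selenom, with a median of 0.41 against 0.013 over all genes. None was called (edgeR adjusted p = 0.978 for each), and 0% of 14759 genes were, while 44 had an unadjusted p under 0.05 and DESeq2 called 3. The edgeR fit did not call Htt either, at 45.7 to 64.5 CPM in control and 10.6 to 15.5 CPM in HTT-deleted libraries. It thus missed a difference without overlap between the groups. Most of the 10 log2 fold changes rested largely on 1 library. Total HTT-deleted replicate 1 was the highest of the 6 total RNA libraries for all 10 genes, against 34.5% of all genes tested. Its ratio to the mean of the other 5 libraries was 2.82 for Selenom, 2.44 for Gpx4, 2.04 for Selenok, 1.99 for Selenow and 1.96 for Selenop, and 1.05 for Selenot.

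Among the other 5 total RNA libraries the 10 genes varied little, with a coefficient of variation from 2.49% for Selenot to 14.5% for Selenop. Without the library that stood apart, 4 of the 10 genes had a log2 fold change above 0 and the median was -0.017. Gpx4 then went from 0.58 (SE 0.40) to -0.044 (SE 0.090), and Selenom from 0.64 (SE 0.47) to -0.14 (SE 0.099). In that library Txnrd2 deviated by 0.88 where the median of its length group was -0.089, and Selenop by 0.98 where that of its group was 0.17. Selenos, at 0.80, lay near its group's 0.83. Selenof deviated by 0.54 where the median of its group was -0.29. These groups are by exon length for all genes, and the selenocysteine-coding transcripts are shorter. They have 1514 bases for Selenof (5819 of exons), 2085 for Selenop (2842) and 2874 for Txnrd2 (4401). Macrophage markers were also at their highest total RNA sum in this library, 7537 CPM, and the part of either in these values was not tested.

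In the authors' deposited table, whose name speaks of RUVSeq, the total RNA log2 fold changes of the 10 genes were also all above 0, from 0.079 for Selenot to 0.42 for Gpx4. The lowest false discovery rates there were 0.0522 for Gpx4, 0.0651 for Selenom, 0.0829 for Selenow and 0.0929 for Selenop in the authors' deposited table.

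On ribosomes the differences between HTT-deleted and control cells were smaller. The log2 fold changes ran from -0.10 for Selenow to 0.22 for Selenop, with a median of 0.055 against -0.0010 over all genes. None of the 10 was called without the block, where 0% of 14588 genes were called with edgeR and 110 had an unadjusted p under 0.05, nor with it, where 1.69% were. DESeq2 called 1 gene, which was no selenoprotein. For Gpx1 the change was -0.040 (SE 0.11), for Gpx4 it was 0.083 (SE 0.12), for Selenok 0.031 (SE 0.083) and for Selenof 0.079 (SE 0.11). Without the block edgeR did not call Htt on ribosomes either. A p that misses the threshold does not show that the levels were the same.

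**Figure D4:**
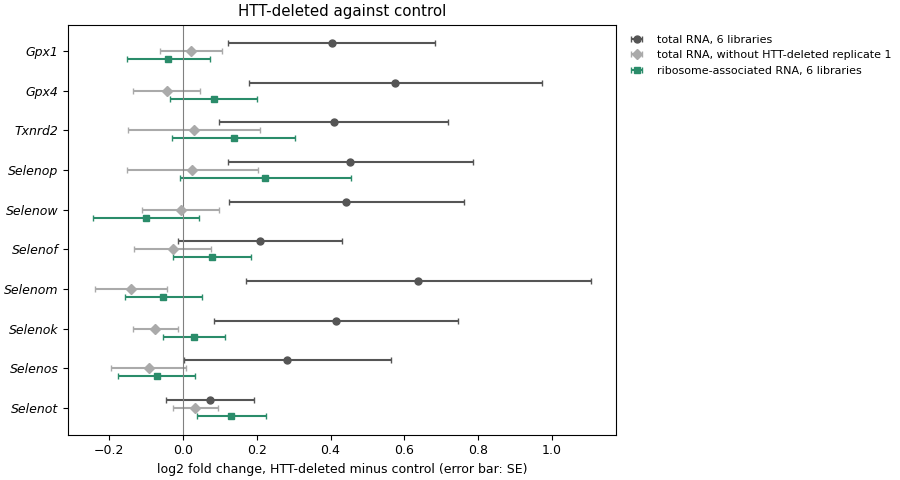
Log2 fold change of HTT-deleted against control cells for the 10 selenoprotein genes (points, with SE as error bars) in total RNA (dark grey circles), in total RNA without HTT-deleted replicate 1 (light grey diamonds) and in ribosome-associated RNA (green squares). The total RNA points lie between 0.073 and 0.64 and move to between -0.14 and 0.034 without that library, close to the ribosome points at -0.10 to 0.22.

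Ribosome-associated RNA of 5 of the 10 genes, Gpx4, Selenop, Selenof, Selenok and Selenot, was higher after HTT deletion in each of the 3 pairs, as it was for 16.1% of all genes. Most of these steps were small: for Selenot they were 0.13, 0.094 and 0.15 on the log2 scale, and for Selenok 0.022, 0.021 and 0.032. Selenop had the largest, at 0.30, 0.13 and 0.18, and with the replicate block its log2 fold change was 0.21 (SE 0.083, edgeR unadjusted p = 0.0205, adjusted p = 0.351). In total RNA 2 of the 10 genes were higher in all 3 pairs, against 9.99% of all genes. These were Selenop, at 0.73, 0.15 and 0.16, and Txnrd2, at 0.71, 0.045 and 0.17.

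The higher Selenop values of HTT-deleted libraries stood beside higher macrophage markers. The mean log2 difference of the 18 markers between HTT-deleted and control was 1.03, 1.22 and 0.63 in the 3 total RNA pairs and 0.72, 1.24 and 0.49 in the ribosome pairs. Their summed level went from 3258 to 7537, from 792 to 1818 and from 1860.0 to 2841 CPM in total RNA. On ribosomes the sum went from 4926 to 8496, from 1197 to 2809 and from 2662 to 3701 CPM. All 18 markers had a log2 fold change above 0 in both fractions, against 52% of all genes in total RNA and 49.7% on ribosomes. None was called without the block, and with it 10 were called higher on ribosomes, against 1.46% of all genes. Of the 10 fibroblast markers, 8 were below 0 in total RNA and 9 on ribosomes, none called. Like Selenop, the summed macrophage markers were highest in replicate 1 and lowest in replicate 2 of every group. The steps with HTT deletion were not ordered alike. Pair 2 had the largest mean macrophage marker step (1.22 in total RNA, 1.24 on ribosomes) and the smallest Selenop step (0.15 and 0.13). Selenop is made above all by liver cells, and hepatocyte markers were near 0 in all libraries (at most 0.94 CPM in sum, with Ttr at 0 throughout). Fibroblast markers summed to 24552 CPM or more in every library, lowest in total HTT-deleted replicate 1, against 43879 CPM in total control replicate 1. What part of the Selenop level comes from fibroblasts, macrophages or other cells was not tested. In these bulk samples more cells of a type and more RNA per cell cannot be told apart.

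**Figure D5:**
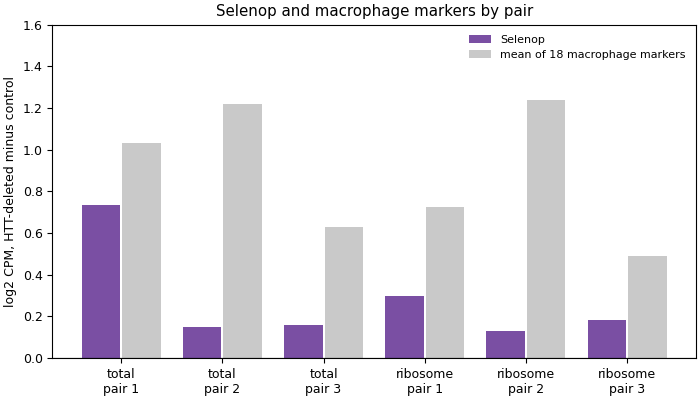
Difference in log2 CPM between the HTT-deleted and the control library of the same replicate number, for Selenop (purple) and as the mean of 18 macrophage markers (grey), in the 3 total RNA and the 3 ribosome pairs. All 12 bars are above 0, and in each pair the macrophage mean (0.49 to 1.24) exceeds Selenop (0.13 to 0.73).

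None of the genes in the 4 other lists was called in either HTT comparison without the block. Of 11 other selenoproteins tested, 6 were above 0 in total RNA and 5 on ribosomes, and of 14 insertion and supply genes 9 and 6. The smallest p in total RNA belonged to Msrb1 (0.78, SE 0.47), Lrp2 (-0.63, SE 0.33), Syvn1 (-0.17, SE 0.12) and Msrb2 (0.76, SE 0.41), each at an edgeR adjusted p of 0.978. On ribosomes it belonged to Dio3 (-0.62, SE 0.40), Eif4a3 (-0.19, SE 0.089), Syvn1 (-0.17, SE 0.11) and Msrb2 (0.35, SE 0.21). With the replicate block, Dio3 passed at an adjusted p of 0.0353, and no other gene of the lists did. Dio3, the deiodinase that inactivates thyroid hormone, was at 11.7, 26.6 and 11.8 CPM in ribosome control libraries and at 7.66, 14.5 and 10.3 CPM in ribosome HTT-deleted libraries. It was lower in all 3 pairs there, while in total RNA it went from 6.87, 19.9 and 9.89 CPM to 9.94, 10.5 and 9.25 CPM, higher in pair 1 and lower in the others.

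The change of the ribosome-to-total ratio with HTT deletion, tested as an interaction over the 12 libraries, was called for none of the 10 genes and 0% of 15574 genes with edgeR, while 85 had an unadjusted p under 0.05. The values ran from -0.64 for Selenom to 0.084 for Selenot, 9 of 10 were below 0, and the median was -0.33. Without total HTT-deleted replicate 1, 8 of 10 were above 0 and the median was 0.12. The ratio change of Selenot was 0.0076, 0.10 and 0.14 in the 3 pairs, and that of Selenom was -1.75, 0.22 and 0.22. In the other lists the smallest p belonged to Txnrd3 (0.49, SE 0.24), Eif4a3 (-0.36, SE 0.20), Txn1 (-0.63, SE 0.47) and Gpx7 (-0.37, SE 0.28), none called, each at an edgeR adjusted p of 1.00.

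Across the 12 libraries, as deviations from the mean of the 6 libraries of the same fraction, the genes most like Gpx1 among 9480 were Guk1 (Pearson r = 0.99), Smdt1 (0.99) and Stx8 (0.99). Those most like Gpx4 were Psme2 and Pdcd5 (0.98 each). Without total HTT-deleted replicate 1 the values were 0.97, 0.95 and 0.94 for Gpx1 and 0.90 and 0.90 for Gpx4. Those most like Selenop were Sat1 (0.99), Dhrs3 (0.98) and Efhd2 (0.98), and without that library 0.98, 0.97 and 0.97. These are descriptions over libraries that share cultures, depth and the library that stood apart.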

How the data were processed

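RNA sequencing of 12 libraries in 4 groups of 3 was analysed. The authors used, per the submitters' processing notes, STAR 2.7.2b for alignment to GRCm38 and HTSeq 0.11.1 for counting, and they deposited raw counts per Ensembl gene. The sources used here do not give the annotation release or the strand setting. The 5 summary entries that name no gene were left out (no feature: 6.94 to 7.73% of reads in total RNA, 2.64 to 3.30% on ribosomes). The authors' deposited table gives log2 fold changes, a likelihood ratio score and p-values with false discovery rates.

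Counts were filtered with filterByExpr, scaled by TMM and tested with edgeR 4.0.16 (R 4.3.3), quasi-likelihood, Benjamini-Hochberg adjusted p under 0.05 over all genes tested, separately per comparison and over 12 libraries for the ratio. SE is the size of the log2 fold change divided by root F. Levels are TMM-scaled CPM, with a prior count of 2 for log2 values. All 10 genes passed every filter. The selenoprotein genes, gene lists and tests were chosen with earlier results of these data known. Named beyond the 10 were genes called in a list (up to 4 per direction, smallest p first), else its smallest p, and the 3 genes most correlated with Gpx1, Gpx4 and Selenop (mean of at least 10 CPM). Items withheld for evaluation are not reported here.

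The same replicate number was taken to mark 1 cell suspension in both fractions. The sample titles give the number alone, so whether control and HTT-deleted libraries of 1 number share a culture is not known. Deviations of same-numbered libraries correlated at r 0.40 to 0.84 between fractions and 0.27 to 0.80 between control and HTT-deleted cells. No values for different numbers are set beside these. A replicate block was therefore fitted only beside the main design. Replicates differed by more than sampling noise (chi-square per degree of freedom 32.1 to 162). Other alternatives were RLE and upper quartile scaling, no filter, DESeq2 1.42.0, limma 3.58.1 voom, 1 fit of all 12 libraries, and leaving out each library. The block on pairs 2 and 3 was added after seeing the data. The tests were first run on simulated data with a fixed spread and no library that stood apart, unlike the real libraries.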

Additional observations from a re-analysis of the deposited data

How the results depend on the processing

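Every library limits these comparisons of 3 against 3, and the cause of the changes below was not tested. RLE and upper quartile scaling and limma voom kept the number of genes called within 1.5 times in all 5 comparisons. For HTT-deleted against control in total RNA, where edgeR called 0, no filter called 1 gene, DESeq2 called 3, the replicate block 0 and the block on pairs 2 and 3 called 94. On ribosomes DESeq2 called 1 gene, the replicate block 247 and the block on pairs 2 and 3 called 14, and for the ratio the replicate block called 0. Between ribosome-associated and total RNA of control cells, 3745 genes were called, 7524 with the replicate block, 7445 with the block on pairs 2 and 3, 1646 in 1 fit of all 12 libraries, and 1507 to 3251 leaving out 1 library (lowest without total control replicate 1). In HTT-deleted cells 131 genes were called, 97 with the replicate block, 208 with no filter, 866 by DESeq2, 1135 in 1 fit of all 12 libraries, 8333 with the block on pairs 2 and 3, and 0 to 3008 leaving out 1 library (highest without total HTT-deleted replicate 1). Among the 10 selenoprotein genes the replicate block changed 1 call, that of Selenop in control cells.

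Directions turned for genes that were not called. With the block on pairs 2 and 3, the log2 fold change in total RNA was -0.029 for Gpx1, -0.037 for Gpx4, -0.072 for Selenof, -0.099 for Selenok, -0.20 for Selenom, -0.17 for Selenos and -0.029 for Selenow. In that fit it was 0.037 for Gpx1, 0.017 for Selenom and 0.038 for Selenow on ribosomes, and 0.52 for Selenom and 0.032 for Txnrd2 between the fractions of HTT-deleted cells. The ratio change there was 0.065 for Gpx1, 0.12 for Gpx4, 0.14 for Selenof, 0.13 for Selenok, 0.22 for Selenom, 0.15 for Selenos and 0.066 for Selenow.

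Leaving out 1 library at a time, the total RNA values ran from -0.044 to 0.82 for Gpx4, -0.028 to 0.34 for Selenof, -0.075 to 0.62 for Selenok, -0.14 to 0.94 for Selenom, -0.093 to 0.46 for Selenos and -0.0060 to 0.65 for Selenow, each lowest without total HTT-deleted replicate 1. On ribosomes they ran from -0.12 to 0.063 for Gpx1, -0.011 to 0.076 for Selenok, -0.13 to 0.0053 for Selenom, -0.023 to 0.41 for Selenop, -0.22 to 0.036 for Selenow and -0.0060 to 0.21 for Txnrd2. The ratio change ran from -0.69 to 0.15 for Gpx4, -0.23 to 0.13 for Selenof, -0.55 to 0.12 for Selenok, -0.96 to 0.10 for Selenom, -0.43 to 0.22 for Selenop, -0.51 to 0.040 for Selenos and -0.43 to 0.13 for Txnrd2, each highest without total HTT-deleted replicate 1. Between the fractions of HTT-deleted cells it ran from -0.17 to 0.66 for Gpx4, -0.044 to 0.61 for Selenok, -0.55 to 0.50 for Selenom, -0.073 to 0.45 for Selenos, -0.077 to 0.54 for Selenow and -0.38 to 0.17 for Txnrd2. In control cells Txnrd2 ran from -0.023 to 0.16. A fit that leaves a group with fewer libraries pools its spread with the rest.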
